A study of Mus musculus with 6 samples.

Results

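The 10 genes described here are Atf4 and 9 genes of its stress and amino acid supply programme: Ddit3, Trib3, Phgdh, Psat1, Psph, Shmt2, Asns, Slc7a11 and Chac1. They were taken by name from the probe sets annotated with exactly 1 gene symbol, and each gene was read from the probe set brightest on average over all arrays. They are 10 of 18193 measured genes and cover 23 of 45101 probe sets. The cells were mPAC L20, a line from mouse pancreatic duct, and their biotin-labelled RNA was read on 6 Affymetrix arrays, 1 per sample. All cells received an adenovirus expressing Neurog3 from the CMV promoter. A hairpin adenovirus was given before it, with a scrambled hairpin in the 3 shControl samples and a hairpin against Atoh8 in the 3 shAtoh8 samples. The multiplicity of infection was 40 for each; the hairpin virus stayed on for 4 h, the Neurog3 virus followed for 1.5 h, and culture then lasted 44 to 46 h. Per the design text the replicates were 3 independent experiments. The model is thus 1 cell line with 1 Atoh8 hairpin, read against 1 scrambled hairpin.

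ATF4 is a basic leucine zipper transcription factor of the integrated stress response. When amino acids run short or the endoplasmic reticulum is stressed, kinases phosphorylate the initiation factor eIF2, bulk translation slows, and translation of the Atf4 mRNA goes up. The protein, paired with a C/EBP family member, then drives genes that make serine, glycine and asparagine, import cystine and charge tRNAs, as well as Ddit3 and Trib3, which lead towards cell death or damp the response. Exocrine and endocrine pancreas cells make much secreted protein and are known for strong use of this pathway. An array reads the mRNA, so the translational step of ATF4 control is not measured here.

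The sequences below are promoter stretches of some members that match the core letters of the amino acid response element. ATF4 and its C/EBP partner are known to bind this element. The matches describe some of the genes outside the expression values and are not shared by all 10. The core TGATGNAA was searched on both strands in RefSeq promoters of build GRCm38.p6, from 250 bases before to 50 bases after each transcription start. All 10 genes were matched by symbol, with 11 promoter windows. Capitals mark the match, and TTGCATCA is the same core read on the other strand.
Asns, chr6:7693210-7693252, minus strand: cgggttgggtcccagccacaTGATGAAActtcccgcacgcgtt
Slc7a11, chr3:50443633-50443699, minus strand: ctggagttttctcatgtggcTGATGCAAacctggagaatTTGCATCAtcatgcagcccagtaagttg
Chac1, chr2:119351029-119351076, plus strand: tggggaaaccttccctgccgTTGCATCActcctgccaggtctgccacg
The Asns match began 23 bases before the start, those of Slc7a11 66 and 47 bases before it in opposite orientations, and that of Chac1 193 bases before it. Trib3 held a match on the opposite strand from 15 bases past its start, which is not printed. So 4 of the 10 genes held the core in this window, where 4.51% of 27025 genes in the promoter table did. Slc7a11 was the member with a pair of matches.

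A looser form, TGNNGCAA, was searched after the sequences had been seen. It overlaps the first motif in TGATGCAA. It was found in Trib3, Psat1, Slc7a11 and Chac1, again 4 of 10 genes, and in 13.0% of all genes in the table. The Trib3 and Psat1 stretches share the letters TGGTGCAA, 33 and 136 bases before their starts.
Trib3, chr2:152344066-152344113, minus strand: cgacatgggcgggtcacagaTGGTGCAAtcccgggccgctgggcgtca
Psat1, chr19:15925168-15925215, minus strand: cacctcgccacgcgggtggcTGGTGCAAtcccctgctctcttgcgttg
A match is a run of letters and was not tested as a binding site. The windows of Atf4, Ddit3, Phgdh, Psph and Shmt2 held neither form.

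All 10 genes had a lower mean in shAtoh8 than in shControl, with a median log2 fold change of -1.01, where the median over all genes was 0.01. The mean differences ran from -0.33 for Phgdh to -1.60 for Slc7a11. None passed the test across all probe sets (limma, 0 of 10 at an adjusted p under 0.05, the threshold used throughout, and 9 of 10 lower at an unadjusted p under 0.05). Of all genes 1.15% passed in either direction (0.638% lower), and 8.82% were lower at an unadjusted p under 0.05. This fit left the replicate numbers out. With the replicate number as a block 2 of the 10 passed, both lower, where 2.75% of all genes passed lower. For 9 of the 10 the 3 shAtoh8 arrays all lay below the 3 shControl arrays, Phgdh being the exception, against 11.4% of all genes. The members had been chosen with earlier results of these data known, so these shares are descriptions. In bulk RNA, fewer cells with a high level and less RNA per cell cannot be told apart.

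The arrays had similar medians (5.49 to 5.56 log2 signal). The hybridisation spikes averaged 9.89 on the shAtoh8 replicate 2 array and 10.2 to 10.5 elsewhere. That array also had the largest excess of 3' over 5' actin signal, 0.354 where the rest had 0.107 to 0.202. Atoh8, the hairpin's target, read 8.75, 8.29 and 7.52 in shControl and 7.83, 7.90 and 7.37 in shAtoh8. The groups overlapped, since shControl replicate 3 lay below shAtoh8 replicates 1 and 2, while the shAtoh8 array was lower in 3 of 3 pairs. The difference did not pass (-0.49 ± 0.30 SE, 1.40-fold lower, limma adjusted p = 0.573, and 0.157 with the replicate number as a block) and was -0.82 without shControl replicate 3. Neurog3 on its main probe set read 7.45, 6.64 and 5.79 in shControl and 6.78, 6.06 and 5.33 in shAtoh8. It overlapped between groups, was lowest in replicate 3 of each, and was lower in 3 of 3 pairs (-0.57, adjusted p = 0.706, and 0.0330 with the block), but its other probe set read 0.18 (0.751, and 0.400 with the block). Whether either probe set reads the viral transcript was not tested. Of 12 measured duct epithelium markers 8 had a mean signal above the 75th percentile of probe sets (Krt7, Krt8, Krt18, Krt19, Sox9, Cdh1, Muc1 and Car2), while Cftr, Onecut1 and Prom1 lay below the median. Above that percentile lay 1 of 8 acinar markers (Cela1) and 0 of 12 islet, 0 of 10 fibroblast and 0 of 6 leukocyte markers. No marker in these 5 lists passed the test (limma, 0 of 48, with 6 at an unadjusted p under 0.05: 3 duct markers and 1 islet marker lower, 1 duct and 1 acinar marker higher). Of all genes 8.82% were lower and 8.72% higher at that unadjusted p. With the block 2 of the 48 passed, both lower, where 2.75% of all genes passed lower. They were Epcam, an epithelial adhesion molecule (-0.73, 0.0463), and Iapp, the islet hormone amylin (-1.78, 0.0189). Iapp read 8.37, 7.60 and 7.32 in shControl and 6.41, 6.39 and 5.15 in shAtoh8. The part of these markers in the members' differences was not tested. Probe sets differ in brightness for the same amount of RNA, so this is a coarse check.

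**Figure D1:**
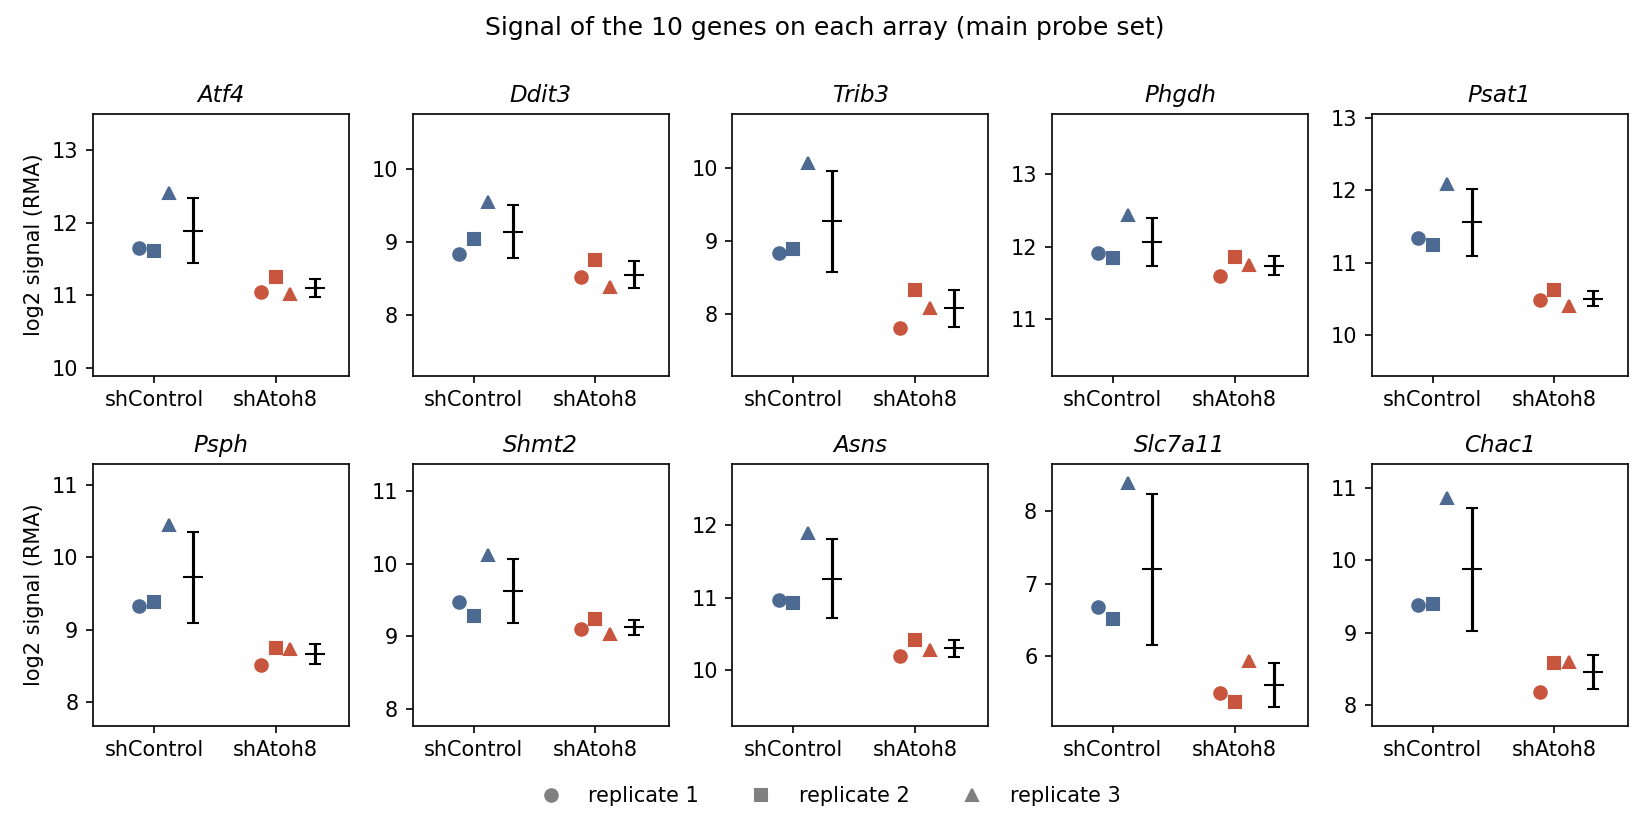
Log2 signal (RMA) of the main probe set of each of the 10 genes on the 6 arrays, by group, with the replicate number as the symbol; the black bar is the mean with its SD (n = 3), and every panel spans the same range of log2 units. The shControl replicate 3 array is the highest of the 6 in all 10 panels, and the groups overlap for Phgdh alone.

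Atf4, the transcription factor itself, was bright on its main probe set. In replicate order 1, 2, 3 the shControl arrays read 11.66, 11.61 and 12.41 and the shAtoh8 arrays 11.04, 11.25 and 11.02. The shAtoh8 arrays lay close together below all controls, and shControl replicate 3 stood above the other controls. From means of 11.89 ± 0.45 and 11.10 ± 0.13 (SD, n = 3 each) the log2 fold change was -0.79 ± 0.21 (SE; 1.73-fold lower; limma adjusted p = 0.151). The second brightest probe set had a like value, -0.80 ± 0.19 (adjusted p = 0.109), and it passed when the replicate number entered the limma fit as a block (adjusted p = 0.0484), while the main one did not (0.0921). The dimmest set read -0.16 ± 0.11 and its groups overlapped.

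Ddit3 encodes CHOP, a C/EBP family factor that ATF4 induces and that is known for its part in death after prolonged stress. Its main probe set read 8.83, 9.05 and 9.55 in shControl and 8.52, 8.75 and 8.38 in shAtoh8. The groups came close, with the highest shAtoh8 array 0.084 below the lowest control. Its log2 fold change was -0.59 ± 0.19 (limma adjusted p = 0.213). Its other, dim probe set had the opposite sign (0.05 ± 0.21, 95% interval -0.46 to 0.55), the one positive value among the 23 probe sets, and ranged from 4.46 to 5.17 with no order between groups.

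Trib3 encodes a pseudokinase that is induced by ATF4 and CHOP and binds ATF4 to limit it. On the main probe set it read 8.84, 8.89 and 10.08 in shControl and 7.81, 8.32 and 8.08 in shAtoh8. The controls of replicates 1 and 2 were almost level and replicate 3 was more than 1 log2 unit higher. The difference was -1.20 ± 0.33 (2.30-fold lower, limma adjusted p = 0.156). Its other probe set gave -1.36 ± 0.31 (adjusted p = 0.108), so both sets had the same sign and a similar size.

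**Figure D2:**
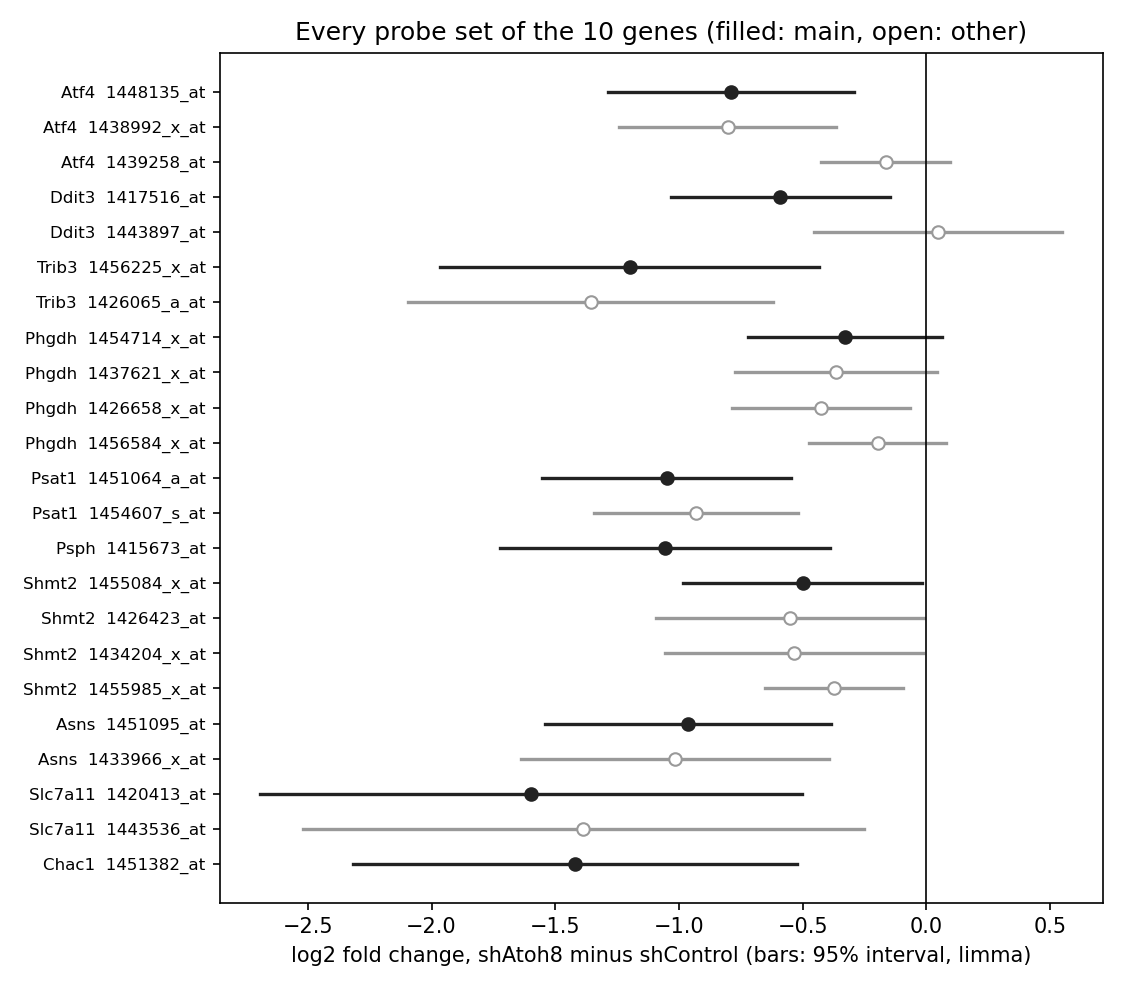
Log2 fold change, shAtoh8 minus shControl, with its 95% interval (limma, n = 3 arrays a group) for each of the 23 probe sets of the 10 genes; filled points are the main probe sets, open points the others. Of the 23, 22 lie below 0 and 1, a dim Ddit3 probe set at 0.05, lies above it.

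The serine pathway starts with Phgdh, the dehydrogenase that takes 3-phosphoglycerate out of glycolysis, and this gene had the smallest difference of the 10. Its main probe set read 11.91, 11.84 and 12.44 in shControl and 11.60, 11.86 and 11.75 in shAtoh8. Replicate 2 of shAtoh8 reached the level of the lower controls, so the groups overlapped. The log2 fold change was -0.33 ± 0.17 (95% interval -0.72 to 0.06, limma adjusted p = 0.468). The other 3 probe sets read -0.20 to -0.43, and the largest of these had no overlap between groups. All 4 carry the _x_at suffix that Affymetrix gives to probes that may bind related transcripts, and a further 2 probe sets that name Phgdh beside another gene were left out.

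Psat1, the aminotransferase of the next step, had a larger difference. On its main probe set it read 11.34, 11.25 and 12.09 in shControl and 10.49, 10.62 and 10.41 in shAtoh8. The nearest arrays of the groups were 0.627 apart. Its log2 fold change of -1.05 ± 0.21 (2.07-fold lower) had the lowest adjusted p of the 10 main probe sets (limma, 0.0813, and 0.0505 with the replicate block). The second probe set read 10.01, 9.93 and 10.62 against 9.27, 9.27 and 9.23, a fold change of -0.93 ± 0.18 (adjusted p = 0.0680), and passed with the block (adjusted p = 0.0384).

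Psph, the phosphatase that releases serine in the final step, was read by a single probe set. It gave 9.33, 9.38 and 10.45 in shControl and 8.51, 8.75 and 8.74 in shAtoh8. Again the controls of replicates 1 and 2 were level and replicate 3 was higher. The log2 fold change was -1.06 ± 0.28 (2.08-fold lower, limma adjusted p = 0.152). Within the pathway, then, Psat1 and Psph had like differences and Phgdh a smaller one. Whether the genes differ from each other was not tested.

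Shmt2, the mitochondrial hydroxymethyltransferase that turns serine into glycine and loads folate, had 4 probe sets of 1 sign. The main one read 9.47, 9.27 and 10.12 in shControl and 9.10, 9.23 and 9.02 in shAtoh8. Replicate 2 was nearly level between groups, and the gap between them was 0.040. The difference was -0.50 ± 0.21 (limma adjusted p = 0.343), and the other sets read -0.37 to -0.55.

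Asns makes asparagine from aspartate with nitrogen from glutamine, and it is a standard readout of the amino acid response. Its main probe set read 10.97, 10.94 and 11.89 in shControl and 10.20, 10.42 and 10.28 in shAtoh8. The groups were 0.511 apart at their nearest arrays. The difference was -0.96 ± 0.25 (1.95-fold lower, limma adjusted p = 0.135), and the other probe set gave -1.02 ± 0.27 (0.143). Its promoter stretch above holds TGATGAAA.

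The largest difference of the 10 was that of Slc7a11, the light chain of the cystine and glutamate exchanger that supplies cysteine for glutathione, and the gene with the paired promoter matches. Its main probe set read 6.68, 6.52 and 8.39 in shControl and 5.49, 5.37 and 5.94 in shAtoh8. Replicate 3 was the highest array in each group, by far in shControl. The means were 7.19 ± 1.04 and 5.60 ± 0.30 (SD, n = 3 each) and the log2 fold change -1.60 ± 0.47 (SE, 3.03-fold lower; limma adjusted p = 0.179). With the replicate block it passed (SE 0.26, adjusted p = 0.0376), its 3 pairs being lower by -1.19, -1.15 and -2.45. The other probe set read -1.39 ± 0.48 (0.255) and did not pass with the block (0.129). It ranked near the bottom of all genes, with 9 below it.

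Chac1, an enzyme that breaks down glutathione and a known target of ATF4, was measured by 1 probe set. It read 9.38, 9.40 and 10.86 in shControl and 8.19, 8.59 and 8.60 in shAtoh8. With 0.779 between their nearest arrays, its groups lay farther apart than those of the other 9 genes. The log2 fold change was -1.42 ± 0.38 (2.67-fold lower, limma adjusted p = 0.152), and it passed with the block (adjusted p = 0.0473). Slc7a11 and Chac1 were the 2 of the 10 main probe sets that passed in the lower direction with the block, where 2.75% of all genes did.

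Within replicate numbers the differences of the 10 genes had a common sign, with 1 exception, and were largest in replicate 3. The shAtoh8 array was lower in all 3 pairs for 9 of the 10 genes, against 21.5% of all genes, and the exception was Phgdh in replicate 2 (0.02). The median difference of the 10 genes was -0.80 in replicate 1, -0.54 in replicate 2 and -1.64 in replicate 3. Over all genes the medians were -0.01, 0.00 and 0.03. For each of the 10 genes the difference in replicate 3 was the most negative, which held for 32.6% of all genes and for 68.4% of the 2079 genes whose shAtoh8 arrays all lay below the controls.

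**Figure D3:**
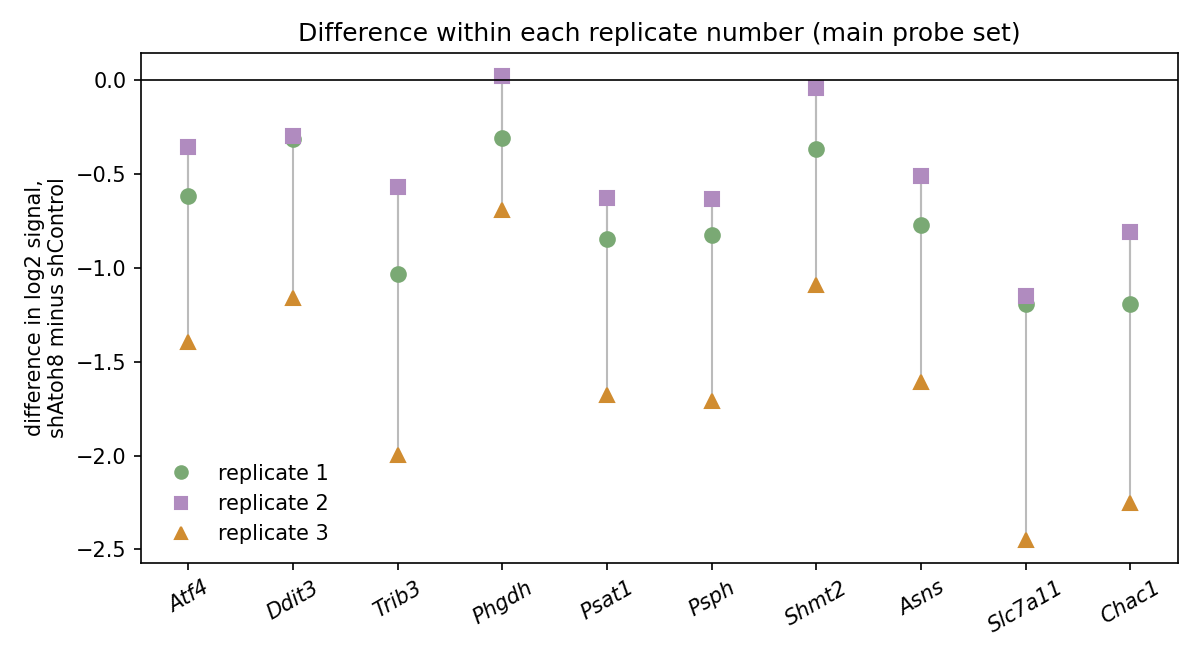
Difference in log2 signal, shAtoh8 minus shControl, within each replicate number for the main probe set of the 10 genes. Replicate 3 lies lowest for every gene, down to -2.45 for Slc7a11, and replicate 2 of Phgdh (0.02) is the one point above 0.

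The size in replicate 3 came with its control array. The shControl replicate 3 signal was the highest of the 6 arrays for all 10 genes, against 18.6% of all genes. It lay above the mean of the other controls by 0.57 (Phgdh) to 1.79 (Slc7a11), with a median of 0.87, while the controls of replicates 1 and 2 differed from each other by no more than 0.21. The SD was larger in shControl than in shAtoh8 for 10 of 10 genes (52.2% of all genes), with medians of 0.50 and 0.13 where all genes had 0.12 and 0.11. The array's median (5.51), spikes (10.5) and actin excess (0.143) were near those of the other arrays. Its Atoh8 (7.52) and main Neurog3 (5.79) signals were the lowest of the 3 controls, and its Atoh8 signal was below that of 2 of the 3 shAtoh8 arrays. What set its level of these genes was not tested.

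Without shControl replicate 3 the median difference of the 10 genes was -0.67 in place of -1.01. All 10 stayed negative, from -0.14 (Phgdh) to -1.001 (Slc7a11), and 8 were lower at an unadjusted p under 0.05, against 7.77% of all genes in that fit. Atf4 was then -0.53, Ddit3 -0.39, Trib3 -0.80, Psat1 -0.79, Psph -0.69, Shmt2 -0.25, Asns -0.65 and Chac1 -0.93. None of the 10 passed over all probe sets (limma adjusted p from 0.0735 for Psat1 to 0.728 for Phgdh). So the values of Phgdh and Shmt2 rested most on that array in relative terms, and those of Psat1 least.

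Genes nearest to Atf4 were sought by the root mean square distance over the 6 arrays, each gene centred on its own mean. The 5 nearest were Relb, an NF-kB subunit (0.080 log2 units), Eif4ebp1, the translation repressor 4E-BP1 (0.104), Mtbp (0.104), Asns (0.106) and Slc20a1, a phosphate transporter (0.111). Asns was thus the one of the 9 other members among them. Relb read 8.06, 8.10 and 8.69 in shControl and 7.46, 7.73 and 7.53 in shAtoh8. As for Atf4, shControl replicate 3 was highest and the groups did not overlap. Relb was picked by its nearness to Atf4 on these same arrays, so this likeness is no separate result. Psat1 lay at 0.132 with 14 genes nearer, Ddit3 at 0.144 with 29 nearer and Shmt2 at 0.153 with 31 nearer. Psph (0.189, 81 nearer), Phgdh (0.247, 246 nearer) and Trib3 (0.271, 377 nearer) were farther. Chac1 (0.410, 2548 nearer, 14% of genes) and Slc7a11 (0.576, 14705 nearer, 80.8% of genes) lay far off. This measure counts a difference in size as distance.

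The steps above ATF4 had values of both signs. The list of 15 measured genes held eIF2 kinases, eIF2 and eIF2B subunits and phosphatase subunits, together with Gcn1 and Impact. Of these 7 read lower and 8 higher, with a median of 0.04. The median was 0.15 without shControl replicate 3, a comparison added for the lists after the data were seen. None passed (limma, 0 of 15). At an unadjusted p under 0.05, 2 were lower and 6 higher, where 8.82% of all genes were lower and 8.72% higher. The smallest p belonged to Impact, a known inhibitor of the kinase GCN2, which read 8.02, 7.71 and 7.96 in shControl and 8.58, 8.30 and 8.74 in shAtoh8. That is a log2 fold change of 0.64 ± 0.14 (adjusted p = 0.0905), which passed with the block (0.0292). Its other 2 probe sets read 0.18 and 0.07. Eif2ak2, the kinase PKR that responds to double-stranded RNA, read 0.42 ± 0.10 (0.104). The other Eif2ak2 probe sets read 0.16 and 0.05, with overlapping groups. Eif2ak3, the endoplasmic reticulum kinase PERK, named after its values were seen, read 0.43 ± 0.12 (0.153, and 0.0484 with the block); its dimmer probe sets read -0.04 and 0.09. With the block 2 of the 15 passed higher, the inhibitor Impact and the kinase Eif2ak3, where 1.92% of all genes did.

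Among 16 bZIP partners and related factors 14 read lower, with a median of -0.43 (-0.28 without shControl replicate 3), and 1 passed (limma, against 0.638% of all genes lower). This was Cebpg, a C/EBP protein known to pair with ATF4. It read 9.99, 9.88 and 10.16 in shControl and 9.38, 9.35 and 9.20 in shAtoh8. It fell by 0.70 ± 0.10 (SE) on the log2 scale, to an adjusted p of 0.0387. The controls lay within 0.3 of each other here, unlike those of the 10 genes. Its other probe sets read -0.50 and -0.39 and did not pass, and leaving out any single array ended the call (adjusted p 0.0672 to 0.124). The fold change stayed between -0.62 and -0.76 in those fits, which called from 0 to 117 of all 18193 genes. With the block 3 of the 16 passed lower, where 2.75% of all genes did. They were Cebpg (0.0352) and, named after their values were seen, Cebpd (-0.88 ± 0.21, 0.112 and 0.0292 with the block), a C/EBP factor, and Myc (-1.01 ± 0.30, 0.181 and 0.0384, and -0.64 without shControl replicate 3). A dim second Cebpd probe set read -0.06. Nfe2l2, the NRF2 factor that also drives Slc7a11, and Atf3, a target of ATF4, were likewise chosen after their values were seen and read 0.26 (0.245) and -0.50 (0.399), the latter -0.25 without shControl replicate 3.

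Cytoplasmic aminoacyl-tRNA synthetases, which load tRNAs and include several known ATF4 targets, read lower in 16 of 19, with a median of -0.30. In 15 of the 19 the highest array was shControl replicate 3, and without that array the median was -0.12. Farsb, a phenylalanyl-tRNA synthetase subunit, was the one of the 19 that passed (limma, against 0.638% of all genes lower). It read 9.91, 9.88 and 10.02 in shControl and 8.72, 8.79 and 8.44 in shAtoh8, so it fell by 1.29 ± 0.11 (SE) on the log2 scale (2.44-fold lower, limma adjusted p = 0.0111). A pair of its other probe sets passed too (-1.28 and -1.30) and a dim one read -0.05. The call was lost without shControl replicate 1 (0.0570), shControl replicate 2 (0.0784) or shAtoh8 replicate 1 (0.0520). With any single array left out the fold change stayed between -1.18 and -1.36. Farsa, the other subunit of the enzyme, named after its value was seen, read 0.10 (adjusted p = 0.728).

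**Figure D4:**
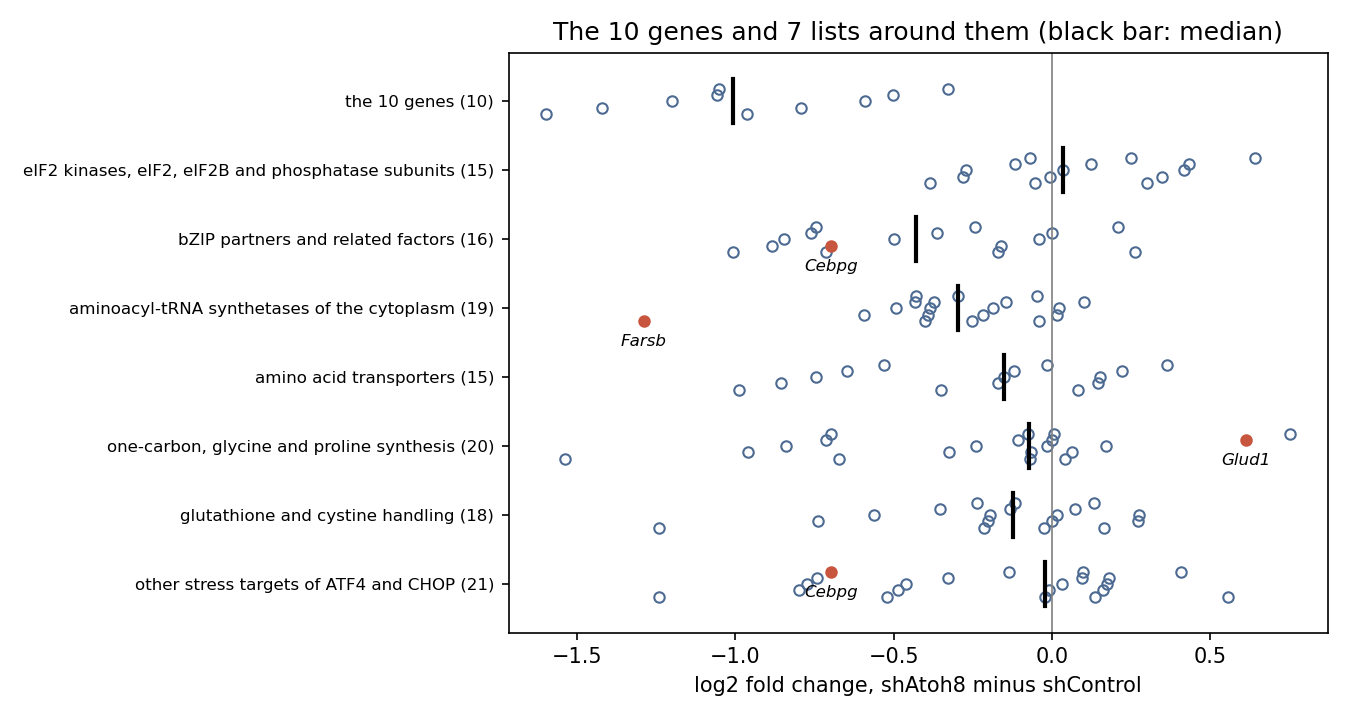
Log2 fold change, shAtoh8 minus shControl, of the 10 genes and of the measured members of 7 lists around them (number in brackets), 1 point a gene; the black bar is the median and filled points passed limma at an adjusted p under 0.05. The median of the 10 genes is -1.01, the list medians lie between -0.43 and 0.04, and Cebpg (shown in both its lists), Farsb and Glud1 are the filled points.

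Of 15 amino acid transporters 10 read lower (median -0.15, and -0.05 without shControl replicate 3) and none passed (limma, 0). At an unadjusted p under 0.05, 3 were lower and 1 higher, where 8.82% of all genes were lower and 8.72% higher. Slc1a4, a carrier of alanine, serine and cysteine, read 9.31, 9.15 and 9.99 in shControl and 8.57, 8.49 and 8.43 in shAtoh8. Its log2 fold change was -0.99 ± 0.21 (adjusted p = 0.0837), and it passed with the block (0.0480). Slc7a5, the light chain of the large neutral amino acid exchanger, read -0.85 ± 0.30 (0.262), and -0.47 without shControl replicate 3. Slc3a2, the heavy chain that Slc7a11 and Slc7a5 both need, was looked at after its value was seen and read -0.53 (0.322), and -0.26 without that array.

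The list of folate, glycine and proline genes, which also held Glud1, Gpt2, Got1, Pck2, Bcat1 and Bcat2, was mixed. Of 20 measured, 13 read lower and 7 higher (median -0.07, and -0.14 without shControl replicate 3), and 1 passed, in the upward direction (limma, against 0.517% of all genes higher). Glud1, the mitochondrial glutamate dehydrogenase, read 12.52, 12.65 and 12.51 in shControl and 13.13, 13.13 and 13.26 in shAtoh8. It rose by 0.61 ± 0.09 (SE; adjusted p = 0.0366), its other probe set read 0.72 (0.0387), and leaving out any single array ended the call (0.0648 to 0.124). The fold change stayed between 0.57 and 0.66 in those fits, which called few genes of any kind. Mthfd2, the mitochondrial folate enzyme next to Shmt2 and chosen here after its value was seen, read 9.46, 9.46 and 10.73 in shControl and 8.40, 8.35 and 8.29 in shAtoh8. Its log2 fold change of -1.54 ± 0.32 (0.0851) was close in size to that of Slc7a11 and showed the same high shControl replicate 3. It passed with the block (0.0430) and without shControl replicate 3 (-1.12, adjusted p = 0.0422), but its other probe set (-1.18, 0.125) did not pass with the block (0.0863). With the block, where 2.75% of all genes passed lower and 1.92% higher, 2 of the 20 passed lower and 2 higher. Those lower were Mthfd2 and Oat, an ornithine aminotransferase (-0.70, 0.0609 and 0.0406). Those higher were Glud1 and the folate enzyme Aldh1l1 (0.75, 0.0911 and 0.0267, where a dim second probe set read -0.04). Oat and Aldh1l1 were named after their values were seen.

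Of 18 glutathione and cystine genes 11 read lower (median -0.12) and none passed (limma, 0). At an unadjusted p under 0.05, 4 were lower and 2 higher, where 8.82% of all genes were lower and 8.72% higher. Gsr, the glutathione reductase, read 10.19, 9.85 and 10.51 in shControl and 9.49, 9.18 and 9.65 in shAtoh8, a log2 fold change of -0.74 ± 0.19 (adjusted p = 0.134). It passed with the block (0.0224), and its other probe set read -0.62 with an adjusted p of 0.0499. Nqo1, a quinone reductase, read -0.56 ± 0.17 (0.186) on a dim probe set (4.31 to 5.34, below the array medians). Cth, named after its value was seen, had the largest difference of the list, -1.24 ± 0.40 (0.221, and 0.0778 with the block). Its groups did not overlap, and it read -0.71 without shControl replicate 3. Most of the list lay near 0, with 12 of the 18 within 0.25 of it.

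Of 21 other stress targets of ATF4 and CHOP 12 read lower and 9 higher (median -0.02, and 0.02 without shControl replicate 3). Cebpg, counted above too, was the one that passed (limma, against 0.638% of all genes lower). With the block, where 2.75% of all genes passed lower and 1.92% higher, 3 of the 21 passed lower and 1 higher. These were named after their values were seen and are, beside Cebpg, the oxidoreductase Ero1a (-1.24 ± 0.31, adjusted p = 0.13, and 0.0225 with the block) and Eif4ebp1 (-0.80 ± 0.18, 0.101 and 0.0468) on the lower side. On the higher side was Sesn2, which restrains mTORC1 under amino acid shortage (0.55 ± 0.22, 0.315 and 0.0339). Sesn2 read 8.61, 8.52 and 9.23 in shControl and 9.21, 9.13 and 9.67 in shAtoh8, higher in 3 of 3 pairs with overlapping groups, opposite in sign to the 10 genes.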

How the data were processed

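Gene expression was measured on 6 Affymetrix arrays of mPAC L20 cells, 3 shControl and 3 shAtoh8. The authors deposited 1 log2 signal for each of 45101 probe sets, from RMA in the affy package per the submitters' processing notes. Their versions were not given in the sources used here. RMA puts the arrays on a common distribution, so a shift of most genes would have been removed. Depth does not apply to arrays, and their number limits the precision. The 64 control probe sets were left out and 45037 were tested without a filter.

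Names came from the supplied platform annotation (34945 probe sets with 1 symbol, 932 with several, 9160 with none), and Entrez IDs in a RefSeq gene table (GRCm38.p6) changed 0 symbols. The groups were compared in R 4.3.3 by limma 3.58.1 (lmFit, eBayes, 4 residual and 3.30 prior degrees of freedom), two-sided, with Benjamini-Hochberg adjustment over the 45037 probe sets. Fold changes are shAtoh8 minus shControl with limma's moderated SE and 95% intervals.

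Deviations from the group means correlated at 0.407, 0.187 and 0.433 for same-numbered arrays and at -0.351 to 0.029 for the other combinations, so the numbers were taken to pair the arrays. Values from the fit with that block are given for the named genes whose call differed. In simulated arrays of 45037 probe sets without a pair effect the fit recovered 13.6%, 90.3% and 99.4% of changes of 0.5, 1 and 2 (log2), with 6.80% of calls false. The SE of the 10 genes averaged 0.27, against 0.12 over all genes, so these shares do not carry over to them.

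The 10 genes and the lists were chosen with earlier results of these data known. Named were the 10 genes; in each list the members that passed (up to 4), or otherwise the 2 with the smallest p; and the 5 genes nearest to Atf4. Other genes were named after their values were seen, as the text says.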

Additional observations from a re-analysis of the deposited data

How the results depend on the processing

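The 10 genes were refitted under 14 alternatives: median centring, repeated quantile normalization, brighter probe sets alone, the replicate block, a trend and robust variance, array weights, averaging each gene's probe sets, probe sets without the _x_at and _s_at suffixes (no value for Phgdh), and each array left out in turn. The number of genes that passed in limma was 0, except for 2 with the replicate block (Slc7a11 and Chac1) and 1 after averaging probe sets (Psat1, -0.99, adjusted p = 0.0432). With 1 array left out it stayed at 0 in all 6 fits, which called from 0 to 117 of all 18193 genes. In block fits without both arrays of a replicate number, added after the data were seen, the number was 0 without replicate 1, 7 without replicate 2 and 0 without replicate 3. Of all 18193 genes these block fits called 0, 966 and 0. The median of the 10 genes was most negative without shControl replicate 2 (-1.17) and least negative without shControl replicate 3 (-0.67). No gene's fold change turned positive in any of these fits. Lowest adjusted p-values over the 14 alternatives were 0.0875 for Atf4, 0.0642 for Trib3, 0.0533 for Psph, 0.0653 for Asns, 0.151 for Ddit3, 0.223 for Shmt2 and 0.283 for Phgdh. The SE averaged 0.27 over the 10 genes and 0.12 over all genes.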
